A study of Mus musculus with 6 samples.

Results

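The megakaryocyte and platelet genes described here are 33 genes chosen by name, with earlier results of these data known. They cover proteins of platelet granules, platelet surface receptors, the machinery that activates integrins and releases granules, both enzymes of thromboxane synthesis, the transcription factor Fli1 and the platelet tubulin Tubb1. Of the 33, 28 had a probe set that names no other gene, and they are read against all 19937 genes measured the same way. Each of the 28 had 1 such probe set. Gp1bb is on a probe set that it shares with Septin5, and Selp, Gp1ba, Gp6 and Ptgs1 were not analysed here. RNA came from whole livers of FVB/NJ mouse embryos at embryonic day 13.5, bred from Klf1 +/- parents. Livers of 3 wildtype and 3 Klf1 -/- embryos (knockouts) were dispersed into single cells, and each liver's RNA was hybridised to 1 Affymetrix mouse gene array. The genotype is that of the whole embryo, the labels name no tissue-specific driver, and they record no sorting of a cell type. The comparison asks which RNAs of the fetal liver differ when Klf1 is missing.

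Megakaryocytes are the large marrow and fetal liver cells that shed platelets into the blood. They share a progenitor with red cells, and Klf1 is the zinc-finger factor that drives the red cell programme. Fli1, an ETS factor of the megakaryocyte programme, and Klf1 have been described as opposing each other in that shared progenitor. Platelets carry granules loaded with adhesive proteins and chemokines, receptors for von Willebrand factor, fibrinogen and thrombin, and an intracellular relay that switches the fibrinogen receptor into its binding state.

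Values are log2 intensities, so a difference of 1 is a doubling of intensity. A gene was called where limma's adjusted p over all genes was under 0.05, and only called genes are said to rise or fall. Klf1 itself, the check of the labels, read 10.59, 10.58 and 10.76 in wildtype replicates 1, 2 and 3 and 9.05, 9.38 and 9.12 in the knockouts, a fall by 1.46 ± 0.10 (SE, n = 3 arrays a group in every comparison here). The 6 arrays were alike in median probe set intensity, at 104 to 110. The upper quartile was 391 to 401 in the wildtype and 394, 412 and 418 in knockout replicates 1, 2 and 3. All 8 measured hepatoblast markers, Alb and Afp among them, and all 8 measured erythroid markers were above the array median of genes on all 6 arrays. So were 27 of the 28 megakaryocyte and platelet genes, including Pf4, Itga2b, Gp5, Gp9 and Treml1, which serve as markers of the lineage. The exception was Angpt1, below the array median on every array and above its lower quartile. In whole liver, more cells of a type and more RNA per cell cannot be told apart.

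Of the 28 genes, 22 rose in the knockout livers, none fell, and 6 were not called. Across all 19937 genes 10.8% were called higher and 8.26% lower. Among the 9969 genes at or above the median of mean intensity, fitted alone, 23.5% were called higher. The median change of those brighter genes was 0.06. That set held 27 of the 28 genes, of which 25 were called higher in that fit. The change was positive for 28 of 28 (27 with arrays centred on their 75th percentile, where F5 had -0.027), with a median of 0.66 and a range of 0.04 (F5) to 1.26 (Thbs1), while the median change of all genes was -0.02. By limma, 26 of the 28 were higher at an unadjusted p under 0.05, as were 3358 of all 19937 genes. In 24 genes every knockout array was above every wildtype array, a separation shown by 19% of all genes. A rise of at least 2-fold was called for 3 of them, Thbs1, Bin2 and Itga2b, and for 0.527% of all genes. Of all 19937 genes, the 500 with the largest positive change included 16 of these 28 (57.1% of the 28). An exact permutation test of 3 against 3 cannot give a p below 0.1, so single genes rest on limma's moderated fit, and its p-values are relative to the variation among these 6 livers.

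**Figure D1:**
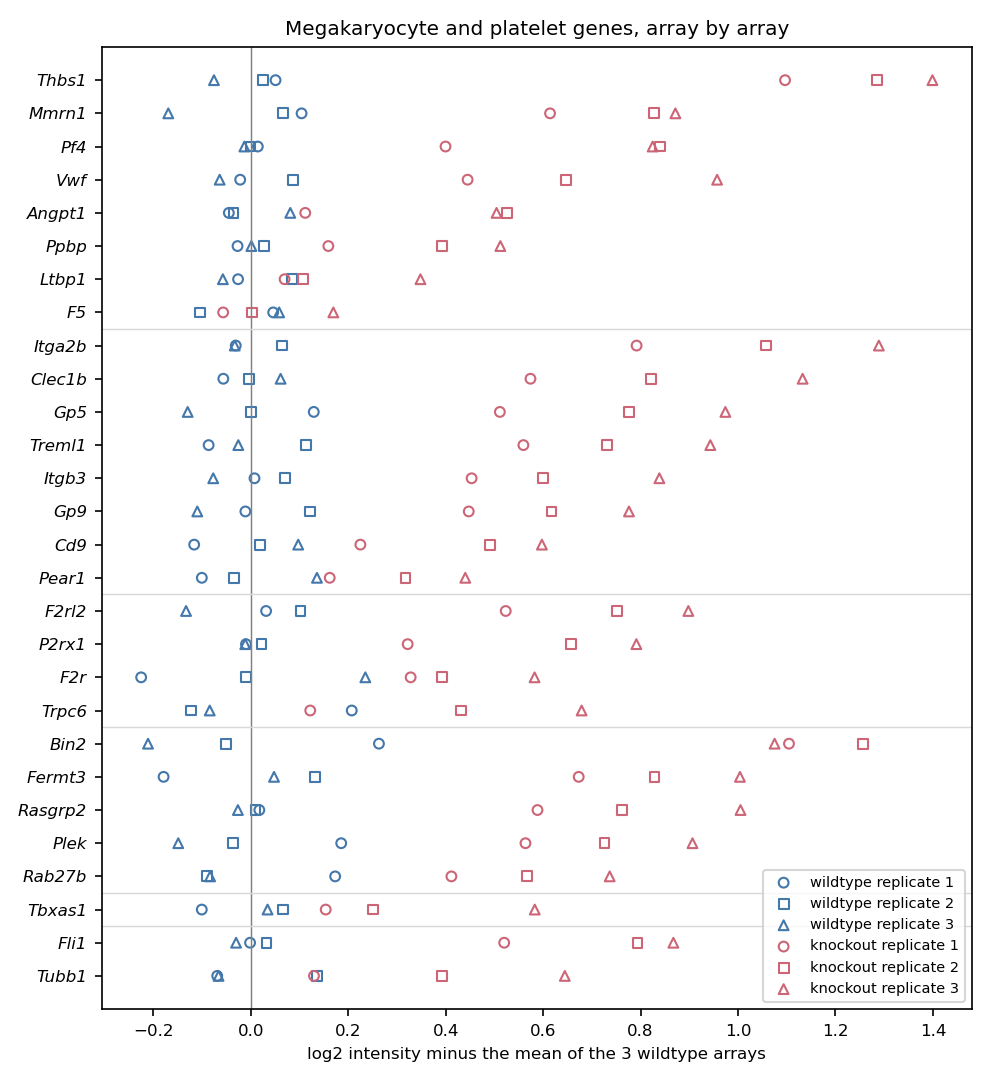
Log2 intensity of each of the 28 genes on the 6 arrays, minus the mean of the 3 wildtype arrays, with genes grouped by role and separated by grey lines (from the top: granule proteins, adhesion and collagen receptors, thrombin and nucleotide receptors and channels, integrin signalling and secretion, thromboxane synthase, then Fli1 and Tubb1). Each point is 1 array; the knockout arrays lie to the right of all wildtype arrays for 24 genes, and knockout replicate 1 is the lowest knockout array for 27.

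Of the 8 measured granule proteins, 6 rose, with a median change of 0.53 over the 8. Thbs1 encodes thrombospondin-1, an adhesive glycoprotein of platelet alpha granules that other cells also make. It read 11.97, 11.95 and 11.85 in the wildtype livers and 13.02, 13.21 and 13.32 in the knockouts. The groups lay far apart, with a change of 1.26 ± 0.09 (2.40-fold, adjusted p = 5.36e-06), the 50th largest rise of all genes. Pf4, the chemokine platelet factor 4, read 11.74, 11.73 and 11.71 in the wildtype livers against 12.13, 12.57 and 12.55. Its wildtype values were nearly equal, the first knockout was the lowest of the knockouts, and the change was 0.69 ± 0.11 (adjusted p = 0.0018). Vwf, von Willebrand factor, which tethers platelets to injured vessel walls and is also made by endothelium, read 8.79, 8.90 and 8.75 against 9.26, 9.46 and 9.77. The groups did not overlap (0.68 ± 0.12, adjusted p = 0.00248). Mmrn1 encodes multimerin 1, which binds coagulation factor V within the granule. It read 9.31, 9.28 and 9.04 against 9.82, 10.04 and 10.08, a change of 0.77 ± 0.10 (adjusted p = 0.000373).

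The other granule proteins changed less or were not called. Ppbp, a chemokine precursor whose gene neighbours Pf4, read 12.71, 12.76 and 12.74 against 12.89, 13.13 and 13.25. All knockouts were above all wildtypes, by 0.35 ± 0.10 (adjusted p = 0.0266), and the call was lost without any 1 of wildtype replicates 1, 2 and 3 and knockout replicates 2 and 3 (adjusted p from 0.0594 to 0.115). Angpt1, a ligand of the endothelial receptor Tek, changed by 0.38 ± 0.11 (adjusted p = 0.0379) and lost its call without any 1 of the same 5 arrays (adjusted p from 0.0593 to 0.139) and with arrays centred on their 75th percentile (0.0624). F5, coagulation factor V, was not called: it read 9.73, 9.58 and 9.74 in the wildtype livers and 9.63, 9.69 and 9.85 in the knockouts, which overlap. Its change was 0.04 (95% interval -0.16 to 0.23). Ltbp1, which binds latent transforming growth factor beta, also overlapped, with a change of 0.17 (95% interval -0.03 to 0.38).

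Of the 8 measured genes in the group of adhesion and collagen receptors, 7 rose, with a median of 0.69 over the 8. Gp6, the collagen receptor listed in that group, had no single-gene probe set and was not analysed. Itga2b and Itgb3 are the chains of the platelet fibrinogen receptor. Itga2b read 9.29, 9.39 and 9.29 in the wildtype livers and 10.12, 10.38 and 10.61 in the knockouts. It had the third largest change of the 28 genes, 1.05 ± 0.12 (2.06-fold, adjusted p = 0.000105). Itgb3, whose protein also pairs with another alpha chain in other cells, read 10.06, 10.12 and 9.97 against 10.50, 10.65 and 10.89. That rise was 0.63 ± 0.10 (adjusted p = 0.00163), with the groups apart. Gp5 and Gp9 belong to the receptor complex for von Willebrand factor. Gp5 read 9.05, 8.92 and 8.79 against 9.43, 9.69 and 9.89, a change of 0.75 ± 0.12. Gp9 read 11.29, 11.42 and 11.19 against 11.75, 11.92 and 12.08, a change of 0.61 ± 0.10. Both were separated between groups and called (adjusted p = 0.00127 and 0.00173). The probe set shared by Gp1bb, another subunit of this complex, and Septin5 read 7.27, 7.39 and 7.36 against 7.58, 7.73 and 7.87, which was not tested and cannot be assigned to either gene.

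Clec1b encodes CLEC-2, the platelet receptor for podoplanin. It read 8.65, 8.71 and 8.77 against 9.29, 9.53 and 9.84, and the change of 0.84 ± 0.12 (1.79-fold, adjusted p = 0.000819) was next in size after Itga2b among the receptors. Treml1, a receptor held in alpha granule membranes until activation, read 9.27, 9.47 and 9.33 against 9.92, 10.09 and 10.30. The groups were apart, by 0.74 ± 0.11 (adjusted p = 0.000612). Cd9, a tetraspanin of many cell types, read 8.86, 9.0 and 9.07 against 9.20, 9.47 and 9.57. It rose by 0.44 ± 0.11 (adjusted p = 0.0156), and lost its call without knockout replicate 2 or 3 (adjusted p = 0.0571 and 0.0704). Pear1, a receptor of platelets and endothelium, read 7.42, 7.49 and 7.66 against 7.69, 7.84 and 7.96. Its groups did not overlap, yet it narrowly missed the threshold (0.31 ± 0.10, adjusted p = 0.0503).

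Of the 4 genes in the group of thrombin and nucleotide receptors and channels, 3 rose. F2rl2 encodes PAR3, a thrombin receptor of mouse platelets. It read 10.09, 10.16 and 9.93 in the wildtype livers and 10.58, 10.81 and 10.96 in the knockouts, a change of 0.72 ± 0.11 (adjusted p = 0.000826). F2r, the thrombin receptor PAR1, which many cells other than mouse platelets use, read 9.08, 9.30 and 9.54 against 9.64, 9.70 and 9.89. The highest wildtype and lowest knockout values lay close together, with a change of 0.43 ± 0.12 (adjusted p = 0.027), and the call was lost when any 1 of wildtype replicates 1 and 2 and knockout replicates 2 and 3 was dropped, and with either other centring of the arrays (adjusted p from 0.0527 to 0.106 over these 6 settings). P2rx1, an ATP-gated cation channel, read 8.52, 8.55 and 8.52 against 8.85, 9.18 and 9.32. It rose by 0.59 ± 0.11 (adjusted p = 0.00404). Trpc6, a cation channel opened by diacylglycerol, was not called: its lowest knockout value, 8.52, was below its highest wildtype value, 8.60 (0.41 ± 0.14, adjusted p = 0.0624).

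All 5 genes of integrin signalling and secretion rose, with a median change of 0.78. Bin2, a membrane-shaping protein of blood cells, read 10.15, 9.83 and 9.67 in the wildtype livers and 10.99, 11.14 and 10.96 in the knockouts. The wildtype values were more spread than the knockout values, and the change was 1.15 ± 0.12 (2.21-fold, adjusted p = 5.79e-05). Fermt3 encodes kindlin-3, which binds integrin beta chains and is needed for their activation in blood cells. It read 9.43, 9.74 and 9.66 against 10.28, 10.44 and 10.62 (0.84 ± 0.11, adjusted p = 0.000349). Rasgrp2, the exchange factor that loads the small GTPase Rap1 ahead of integrin activation, read 8.54, 8.53 and 8.50 against 9.11, 9.28 and 9.53. The wildtype values were nearly level, and the change was 0.78 ± 0.10 (adjusted p = 0.000379). Plek, pleckstrin, a protein kinase C substrate, read 10.70, 10.48 and 10.37 against 11.08, 11.24 and 11.42 (0.73 ± 0.11, adjusted p = 0.00103). Rab27b, a small GTPase of dense granule release, read 8.46, 8.20 and 8.20 against 8.70, 8.85 and 9.02 (0.57 ± 0.11, adjusted p = 0.00355). Both were higher on all knockout arrays than on any wildtype array.

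Fli1 rose from 8.68, 8.72 and 8.65 to 9.20, 9.48 and 9.55, a change of 0.73 ± 0.10 (1.66-fold, adjusted p = 0.000421). Tubb1, the beta-1 tubulin of the platelet's marginal microtubule band, was not called. It read 10.37, 10.58 and 10.37 against 10.57, 10.83 and 11.08, and the lowest knockout value was just under the highest wildtype value (0.39 ± 0.12, adjusted p = 0.0504). Tbxas1, thromboxane synthase, read 7.72, 7.89 and 7.86 against 7.98, 8.07 and 8.41. Its groups were apart, and it was not called (0.33 ± 0.11, adjusted p = 0.0651).

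**Figure D2:**
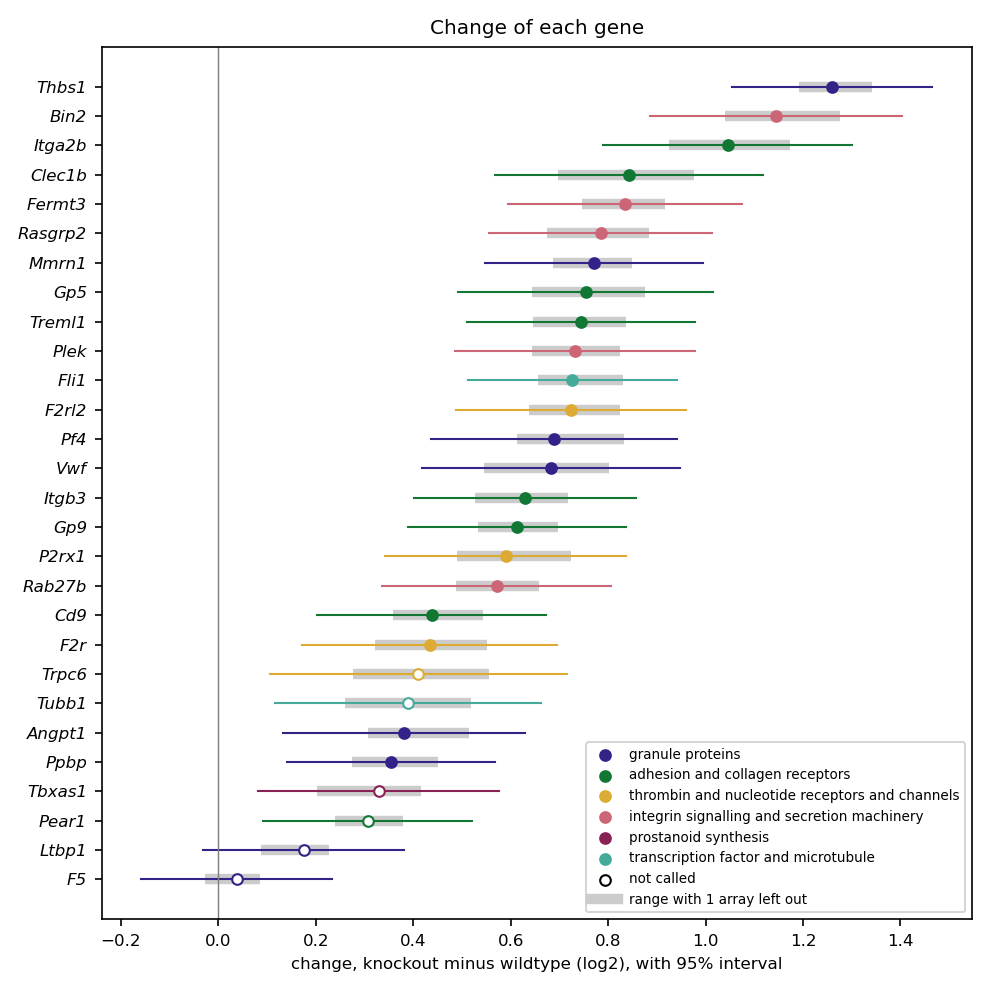
Change of each gene (knockout minus wildtype, log2), ordered by size. Points are limma estimates coloured by role, filled where called; thin lines are 95% intervals and grey bars the range of the estimate with 1 array left out. The intervals of 26 genes lie above 0, and those of F5 and Ltbp1 cross it.

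The estimated change was not equal among genes of 1 structure. In the fibrinogen receptor it was 1.05 for Itga2b and 0.63 for Itgb3, and in the von Willebrand factor receptor 0.75 for Gp5 and 0.61 for Gp9. Ppbp and Pf4, chemokines of the same granule, changed by 0.35 and 0.69. The differences within these pairs were not tested. By general knowledge, 9 of the measured genes were classed as largely of the platelet lineage: Pf4, Ppbp, Itga2b, Gp5, Gp9, Clec1b, Treml1, F2rl2 and Tubb1. Of these, 8 rose and the median change was 0.72. Of the 19 classed as also in other cells, 14 rose and the median was 0.59. Which fetal liver cells express each gene was not measured, so the classes do not show restriction to the lineage in this tissue. The difference between these classes was not tested.

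The knockout livers did not carry the rise to the same degree. Over the 28 genes, the median deviation from the wildtype mean was 0.45 in knockout replicate 1, 0.65 in replicate 2 and 0.83 in replicate 3, while the wildtype arrays had -0.01, 0.02 and -0.03. Knockout replicate 1 was the lowest of the knockouts for 27 of the 28 genes and replicate 3 the highest for 25. Among all genes those positions were taken by the same arrays for 38.1% and 34.4%. Bin2 was the gene for which replicate 1 was not the lowest. The within-group SD of a gene had a median of 0.10 over the wildtype and 0.19 over the knockout arrays. The sum of the 28 genes' intensities, which the brightest genes dominate, was 30283 to 31908 in the wildtype and 44132 to 56243 in the knockout livers. Of 88 other platelet and megakaryocyte genes, replicate 1 was the lowest knockout for 72 and replicate 3 the highest for 63. Replicate 3 was also the highest for 15 of 15 endothelial markers, with replicate 1 the lowest for 11, and the highest for 9 of 10 mesenchymal markers, with replicate 1 the lowest for 3. Knockout replicate 1 was the lowest for 15 of 19 housekeeping genes, whose medians in the knockouts were -0.07, 0.05 and 0.05. Y-linked genes were high in wildtype replicate 2 and knockout replicate 1 (mean log2 intensity 8.76 and 9.33) and between 4.02 and 4.16 in the other 4. With that difference as a covariate, 25 of the 28 genes were called higher. Without knockout replicate 1, 26 were, and without replicate 2 or 3, 18. The parts of endothelial and mesenchymal content and of array brightness in this order were not tested.

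**Figure D3:**
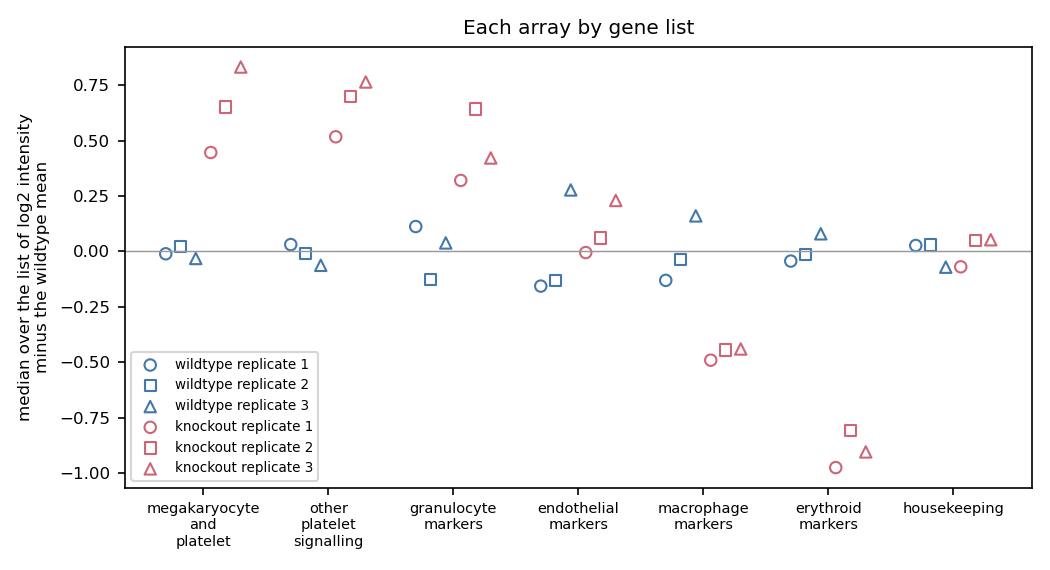
Median over each gene list of the log2 intensity minus the wildtype mean (vertical axis), for each of the 6 arrays and for the megakaryocyte and platelet genes and 6 other lists. The 28 genes read 0.45, 0.65 and 0.83 in knockout replicates 1, 2 and 3, while the housekeeping genes stayed between -0.07 and 0.05 on all arrays.

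Promoters are shown because 22 of the 28 measured genes rose and because GATA, ETS, RUNX and Klf factors are the classes known to act in the lineage. The table of RefSeq promoters (GRCm38.p6, 250 bases before to 50 after a start, written 5′ to 3′ on the gene's strand) had entries for 26 of the 33 genes. The 6 printed are those of the called genes with the largest changes among them, and Rasgrp2 has 2 listed starts, of which the first is shown. They are Itga2b at chr11:102469834-102470133 on the minus strand, Clec1b at chr6:129397047-129397346 on the plus strand, Fermt3 at chr19:7019420-7019719 on the minus strand, Rasgrp2 at chr19:6399625-6399924 on the plus strand, Mmrn1 at chr6:60944067-60944366 on the plus strand and Gp5 at chr16:30310732-30311031 on the minus strand. Capitals mark searched letters on either strand. The letters searched for the GATA class were AGATAA and, as an alternative, TGATAA. For the ETS class of factors they were CGGAAG and, as an alternative, AGGAAG. The RUNX class was searched with the letters TGTGGT, and the Klf class with the letters CACACCC. A match on the opposite strand appears as its reverse complement, and no matches overlap in these windows.
Itga2b: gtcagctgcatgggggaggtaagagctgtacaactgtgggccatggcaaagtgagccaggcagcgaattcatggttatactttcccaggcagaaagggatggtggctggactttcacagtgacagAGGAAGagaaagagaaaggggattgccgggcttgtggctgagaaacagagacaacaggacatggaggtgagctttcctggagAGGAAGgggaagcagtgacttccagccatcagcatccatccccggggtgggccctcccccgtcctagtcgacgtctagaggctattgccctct
Clec1b: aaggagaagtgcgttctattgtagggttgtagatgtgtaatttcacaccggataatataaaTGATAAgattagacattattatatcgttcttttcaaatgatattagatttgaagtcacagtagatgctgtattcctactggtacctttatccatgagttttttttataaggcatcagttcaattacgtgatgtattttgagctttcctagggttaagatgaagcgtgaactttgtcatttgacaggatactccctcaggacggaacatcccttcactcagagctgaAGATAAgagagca
Fermt3: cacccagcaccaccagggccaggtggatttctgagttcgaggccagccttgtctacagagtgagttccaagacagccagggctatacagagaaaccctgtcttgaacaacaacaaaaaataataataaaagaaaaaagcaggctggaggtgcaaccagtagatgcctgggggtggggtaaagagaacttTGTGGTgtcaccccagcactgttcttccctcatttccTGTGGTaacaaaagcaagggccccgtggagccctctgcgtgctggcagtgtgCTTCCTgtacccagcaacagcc
Rasgrp2: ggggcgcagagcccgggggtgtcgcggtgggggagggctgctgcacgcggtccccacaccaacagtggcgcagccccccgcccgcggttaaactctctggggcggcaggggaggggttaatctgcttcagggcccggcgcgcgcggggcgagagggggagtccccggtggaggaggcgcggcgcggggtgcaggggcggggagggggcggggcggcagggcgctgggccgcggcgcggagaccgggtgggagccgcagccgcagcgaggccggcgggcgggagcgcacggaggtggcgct
Mmrn1: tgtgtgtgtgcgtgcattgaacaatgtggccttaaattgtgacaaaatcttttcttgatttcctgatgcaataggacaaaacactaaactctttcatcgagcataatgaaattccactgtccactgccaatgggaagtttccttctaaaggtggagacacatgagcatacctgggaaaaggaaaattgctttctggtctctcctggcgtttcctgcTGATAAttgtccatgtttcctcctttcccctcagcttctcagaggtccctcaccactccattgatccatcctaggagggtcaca
Gp5: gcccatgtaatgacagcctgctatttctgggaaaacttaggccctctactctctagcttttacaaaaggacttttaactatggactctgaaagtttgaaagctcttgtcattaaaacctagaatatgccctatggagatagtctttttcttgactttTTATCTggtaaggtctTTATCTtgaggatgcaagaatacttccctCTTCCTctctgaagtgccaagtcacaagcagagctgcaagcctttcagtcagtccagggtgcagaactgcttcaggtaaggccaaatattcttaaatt

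Itga2b holds ETS letters starting at bases -125 and -43 from the start, Clec1b GATA letters at -189 and 38, and Mmrn1 GATA letters at -34. Gp5 holds GATA letters at -93 and -77 and ETS letters at -48, and Fermt3 RUNX letters at -61 and -24 and ETS letters at 29. Rasgrp2 holds none of the letters in this window. The 26 promoters include those of Selp, Gp1ba, Gp1bb, Gp6 and Ptgs1, whose changes were not tested, and of the 6 genes not called. Over the 26 promoters, 8 (30.8%) held GATA letters, Gp1ba and Gp6 among them, against 19% of 27025 promoters of the same length. ETS letters were in 15 (57.7% against 46.4%), RUNX letters in 4 (15.4% against 16.9%) and the Klf letters in 1, Tubb1 (3.85% against 7.85%). Both GATA and ETS letters were in 4, Pf4, Gp1ba, Gp5 and F2rl2 (15.4% against 7.85%). These shares were not tested, and a match describes letters, not binding.

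Other genes of platelets and megakaryocytes, 88 measured of 92 listed, did not all follow: 43 were called higher, 4 lower and 41 neither, with a median change of 0.31. The signalling genes had the most calls, 17 of 20 higher and 0 lower by limma (2 lower at an unadjusted p under 0.05, and 1 or 2 lower by limma in 6 of the 19 alternatives, quantile normalization and 75th percentile centring among them), with a median of 0.65. Prkcq, protein kinase C theta, changed by 1.19 ± 0.09, Btk, a kinase of the collagen receptor pathway, by 1.12 ± 0.10, Alox12, the platelet lipoxygenase, by 0.79 ± 0.11 and Plcg2, phospholipase C gamma, by 0.78 ± 0.08. Of 18 other receptors, 5 were higher and 0 lower by limma (2 lower at an unadjusted p under 0.05, and 1 by limma with quantile normalization or without wildtype replicate 2). They were Ptger3, a prostaglandin E receptor (1.5 ± 0.09, adjusted p = 9.11e-07), Mpig6b (0.84), the ADP receptor P2ry1 (0.63), Cd226 (0.61) and Itga6 (0.48), the last named after its value was seen. F2rl3, the thrombin receptor PAR4, was not called (0.33 ± 0.12, adjusted p = 0.0834). Among 16 granule and secretion genes 7 rose, with Stxbp2, which steers granule fusion, at 0.74, Vps33b, which alpha granule formation requires, at 0.61 and F13a1, a clotting factor subunit also made by macrophages, at 0.53. Unc13d, another fusion factor, fell by 0.44 and is named after its value was seen. Among 17 cytoskeletal genes 8 rose, such as Myl9 (0.65) and Vcl (0.60), and 0 fell by limma (1 lower at an unadjusted p under 0.05, and 1 by limma with 75th percentile centring). The count of 8 was 5 with that centring, 4 without knockout replicate 3 and 5 without knockout replicate 2 or wildtype replicate 3.

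Megakaryocyte transcription factors went both ways, with 6 of 17 higher and 3 lower. Runx1, which is needed for megakaryocyte maturation, read 9.90, 9.86 and 9.74 in the wildtype livers and 10.42, 10.41 and 10.47 in the knockouts (0.60 ± 0.08, adjusted p = 0.000356). Etv6 changed by 0.69 and Gata2, a factor of early progenitors and mast cells, by 0.65. Nfe2, which platelet release requires and which red cells also express, read 10.27, 10.42 and 10.39 against 9.63, 9.69 and 9.55. It thus fell by 0.73 ± 0.08 (adjusted p = 0.000106), opposite in direction to Fli1. Tal1 and Mafg, named after their values were seen, fell by 0.33 and 0.27. Gata1, shared by both lineages, was not called (-0.02 ± 0.08, adjusted p = 0.908).

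**Figure D4:**
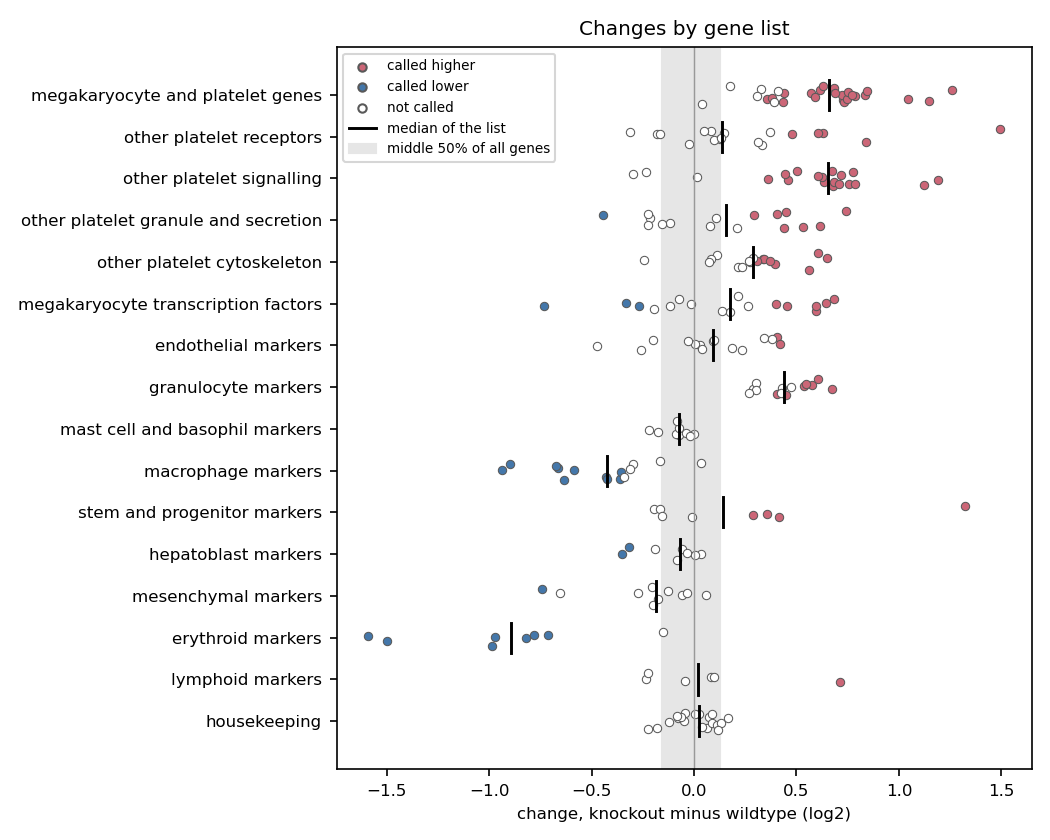
Change (knockout minus wildtype, log2) of every measured gene by list. Each point is a gene, red where called higher, blue where called lower and open where not called; black bars are list medians, and the grey band holds the middle 50% of all genes. The median is 0.66 for the megakaryocyte and platelet genes, 0.44 for granulocyte markers and -0.89 for erythroid markers.

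Markers of other cells that whole liver holds are read against the same shares, 10.8% of all genes called higher and 8.26% lower. These shares are over genes of any brightness. Among genes at or above the median of mean intensity, fitted alone, 23.5% were called higher. Erythroid markers fell for 7 of 8 (median -0.89), with summed intensity 48232 to 52368 in the wildtype and 26167 to 28571 in the knockout livers. Granulocyte markers rose for 7 of 14 (median 0.44), and their sums were 7281 to 8465 against 9641 to 12344. All 14 changes were positive. By limma, 13 of the 14 were higher at an unadjusted p under 0.05, as were 3358 of all 19937 genes. The count of 7 was 4 without knockout replicate 3 and 0 without variance moderation. Stem and progenitor markers rose for 4 of 8 (median 0.14, sums 2233 to 2397 against 2992 to 3300), led by Slamf1, which early megakaryocyte progenitors also carry, at 1.32 ± 0.08. The count was 1 when replicate 2 of either group was dropped. Endothelial markers, which bear on Vwf and Pear1 among others, rose for 2 of 15 (Egfl7 0.42 and Pecam1 0.40), near the share of all genes, with a median of 0.09 and overlapping sums, 5942 to 8130 against 6472 to 7571. That count was 0 with either other centring, 0 when wildtype replicate 1, wildtype replicate 2 or knockout replicate 3 was dropped, 1 without knockout replicate 2 and 6 without wildtype replicate 3. Macrophage markers fell for 10 of 15 (median -0.43, sums 6616 to 8093 against 4631 to 5226). Mast cell and basophil markers gave no call in 9, nor any unadjusted p under 0.05 by limma (1 was lower with 75th percentile centring and 1 without knockout replicate 1). Of these 9, Cma1, Mcpt4, Mcpt8, Fcer1a and Ms4a2 were below the lower quartile of genes on all arrays, as were the macrophage marker Vsig4 and the lymphoid marker Cd79a. The part of these cell types in the changes of the 28 genes was not tested. Hepatoblast markers fell for 2 of 8 (median -0.07, sums 55811 to 66160 against 53958 to 58296), mesenchymal markers for 1 of 10, Lum, near the share of all genes (median -0.19, sums 5336 to 7811 against 5104 to 6035), and of 6 lymphoid markers Il7r rose (0.71). The hepatoblast count was 0 when wildtype replicate 3, knockout replicate 2 or knockout replicate 3 was dropped, 1 when wildtype replicate 2 or knockout replicate 1 was, and 0 with quantile normalization or housekeeping centring. The mesenchymal count was 4 without wildtype replicate 1 and 0 without knockout replicate 2.

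For 18 of the 28 genes the call held with any 1 array left out, the highest adjusted p being 0.019 (Rab27b). The others called were Ppbp, Angpt1, Cd9 and F2r. Of the genes not called, Pear1, Trpc6, Tbxas1 and Tubb1 were called without knockout replicate 1 (Pear1 also without wildtype replicate 3, Trpc6 also without wildtype replicate 1), while F5 and Ltbp1 were not called with any 1 array left out.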

How the data were processed

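Per the labels and the submitters' processing notes, the authors summarised scanned arrays with RMA in Affymetrix Power Tools 1.8.6. The deposited values are linear intensities, 1 column an array, and were taken to log2 here without further normalization. The number of arrays, 3 a group, limits the precision. No genome build or annotation release is given for them in the labels or notes used.

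Of 34760 probe sets, the platform annotation gives 1 gene to 21640, several to 1321 and none to 11799. Only single-gene probe sets were used, and for the 954 genes with more than 1 the brightest by mean over the 6 arrays, leaving 19937 genes. limma 3.58.1 (R 4.3.3; lmFit and eBayes, group only, 2-sided) was fitted to all of them, with Benjamini-Hochberg adjustment over all. The fit was tested on simulated data. The labels give no shared litter or batch.

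The 33 genes and the other gene lists were chosen with earlier results of these data known. All 28 measured genes are named. From the other platelet lists, up to 4 called genes of largest change are named, with F2rl3, Runx1, Gata1 and Nfe2 whatever their value. Itga6, Unc13d, Tal1 and Mafg were added after their values were seen. From the marker lists, up to 2 are named for their change. The 19 alternatives cover normalization, centring, filters, probe sets, moderation, array weights, a replicate block, a Y-linked covariate, thresholds and each array left out.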

Additional observations from a re-analysis of the deposited data

How the results depend on the processing

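Of the 28 genes, 22 were called higher, and none was called lower under any of the 19 alternatives. The count of 22 was 9 without variance moderation (Thbs1, Mmrn1, Itga2b, Treml1, F2rl2, Fermt3, Rasgrp2, Bin2 and Fli1) and 14 when tested against a 1.2-fold change, and 18 to 26 with 1 array left out. Their median change ran from 0.54 to 0.76 with 1 array left out. F5 turned negative with arrays centred on their 75th percentile (-0.027), without wildtype replicate 2 (-0.014) and without knockout replicate 3 (-0.028). With 1 array left out it ran from -0.028 to 0.085. The cause was not tested.

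Over all genes, 2163 were called higher and 1646 lower. These counts were 1160 and 835 at an adjusted p under 0.01, 1128 and 955 without moderation, and 517 and 483 against a 1.2-fold change. With 1 array left out they were 1371 to 2106 and 1026 to 1643. Lower calls were 43.2% of all calls, and 61% with 75th percentile centring. For the other platelet and megakaryocyte genes, the 43 higher calls became 27 without moderation and 21 against a 1.2-fold change (33 to 49 with 1 array left out). The 4 lower calls became 8 with quantile normalization or 75th percentile centring, 7 with genes under the median left out, 2 at an adjusted p under 0.01 and 1 against a 1.2-fold change (3 to 4 with 1 array left out).

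Deviations of arrays of the same replicate number from their group means had correlations over all genes of -0.16, -0.22 and 0.18. For arrays of different replicate number they ran from -0.17 to 0.33. The highest was between wildtype replicate 2 and knockout replicate 1, the arrays with high Y-linked genes. With 3 arrays a group, these cannot decide whether the numbers pair arrays. The main fit takes the numbers as names only. A replicate block gave 25 genes called higher of the 28, and 2002 higher and 1496 lower over all genes.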
